A study of Mus musculus with 6 samples.

Results

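The Id genes and their neighbours in bone morphogenetic protein (BMP) signalling were followed in the 2208L mammary tumour of the mouse. The 8 genes Id1, Id2, Id3, Id4, Bmp4, Bmp7, Smad6 and Smad7 were taken by name from a table of 54532 genes. Id3 and Id4 had been picked because they moved in opposite directions between circulating and primary tumour cells. The values of that contrast are therefore given for the 8 genes as a description, with no test. The CTC group held 3 libraries of tumour cells from the blood of Balb/c mice bearing 2208L, grown on after collection. The PT group held 3 libraries from dissociated primary tumours enriched for tumour cells, each labelled as matched with the CTC library of its number. The match is read here as the same mouse, so that the replicate number names the mouse. Both groups were untreated cancer cells of 1 tumour line, but CTC cells were propagated and for PT cells the labels mention no such growth, so handling and group cannot be told apart. The sources used here give neither the age nor the sex of the mice.

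BMP ligands such as BMP4 and BMP7 are secreted factors that bind a pair of receptor types on the cell surface. The activated receptors phosphorylate Smad1, Smad5 and Smad9, which enter the nucleus with Smad4 and switch on target genes, the Id genes among the best known. Id proteins carry a helix-loop-helix domain without a DNA-binding region, so they capture the E proteins (the products of Tcf3, Tcf4 and Tcf12) and keep them off DNA. Smad6 and Smad7 are induced by the pathway and inhibit it, Smad6 mostly in the BMP arm and Smad7 in both the BMP and the TGF-beta arm. In the mammary gland Id4 is known as a gene of basal cells, and Id2 as a gene of the differentiating epithelium.

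Library totals lay between 23845953 and 27897320 counts. Levels are given as CPM (counts relative to library size, scaled by the TMM method), and as TPM (the matching measure for transcripts, which also divides by gene length) where genes are compared with each other. A count of 3 corresponded to between 0.106 and 0.129 CPM, a limit that covers counting error only. The labels call all 6 samples cancer cells, and the 9 luminal epithelial markers summed to between 1836 and 4306 CPM per library. Most of that sum came from Krt8 and Krt18 in every library. Elf5, Kit, Prlr and Esr1 stayed at or below 24.6 CPM. Pgr had 0 counts in every library, and Krt19 had 0 in both libraries of mouse 3. Markers of host cells differed in level from list to list. The 8 endothelial markers summed to between 0.313 and 3.76 CPM in CTC and between 0.207 and 2.11 CPM in PT, and Cldn5 had 0 counts in every library. The 10 leukocyte markers summed to between 0.852 and 26.2 CPM in CTC and between 4.32 and 16.95 CPM in PT, with Adgre1, C1qa, Ly6g and Csf3r at 0. Most of the highest sum in each group came from S100a8, at 25.3 CPM in CTC replicate 3 and 15.2 CPM in PT replicate 2. Ptprc had at most 7 counts and Lyz2 at most 1 in any library. The 5 pericyte markers reached 22.4 CPM (CTC) and 29.5 CPM (PT), and the 5 adipocyte markers 2.58 and 1.42 CPM, with Lep at 0. Most of these pericyte sums came from Notch3, at 21.5 CPM in CTC replicate 3 and 27.9 CPM in PT replicate 1. Rgs5, Cspg4, Kcnj8 and Abcc9 had at most 24 counts in any library. The 8 fibroblast markers ranged from 8.91 to 165 CPM in CTC and from 18.2 to 75.9 CPM in PT, with Lum and Dpt at 0. Most of the highest fibroblast sum, in CTC replicate 3, came from Col3a1 at 125 CPM, and its part in the results was not tested. In bulk libraries fewer cells of a type and less RNA per cell cannot be told apart.

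RefSeq promoter windows of GRCm38.p6, from 250 bases before to 50 bases after the annotated start, matched 5 of the 8 genes: Id2, Id3, Id4, Bmp4 and Smad6. They are shown for Id2 and Id4, which hold the GGCGCC palindrome that Smad1 and Smad5 can bind, and for the Smad6 site below. Capitals mark the motif, and the sequences read 5′ to 3′ on the gene's strand. Only bases before the start and outside annotated exons are printed for Id4 (chr13:48260866-48261115, plus strand) and Id2 (chr12:25096254-25096342, minus strand).
Id4: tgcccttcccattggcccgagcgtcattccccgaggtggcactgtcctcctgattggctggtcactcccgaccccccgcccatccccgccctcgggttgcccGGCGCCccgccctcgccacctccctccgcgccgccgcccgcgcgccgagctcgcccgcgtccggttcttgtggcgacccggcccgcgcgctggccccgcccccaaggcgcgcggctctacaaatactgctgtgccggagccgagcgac
Id2: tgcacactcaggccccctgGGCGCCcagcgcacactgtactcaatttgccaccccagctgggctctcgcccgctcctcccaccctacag

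The motif began 148 bases before the RefSeq start in Id4 and 231 bases before it in Id2, and it occurs in 11.9% of all 32851 promoter windows of this length. The Id2 gene as counted (25093799 to 25097140) begins further upstream, so the printed Id2 bases lie before the RefSeq start but within the first intron of a longer GENCODE transcript. The palindrome reads the same on both strands and shares no letters with the other motifs searched at these places. In Smad6 the 8-base Smad palindrome GTCTAGAC lay across the annotated start, with 4 bases before it and 4 after it (chr9:64022045-64022074, minus strand), and it occurs in 0.213% of windows.
Smad6: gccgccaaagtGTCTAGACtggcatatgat
The third motif searched, the E-box palindrome CACGTG, is in 7.15% of windows. Among the 5 genes it was found in the window of Bmp4, 188 bases before the start. None of the 3 motifs was found in the window of Id3. That window begins inside an Id3 exon annotated in GENCODE and so is not upstream of every annotated start. A match describes letters only, and sequences further from the start were not searched.

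Among the 6 members that passed the filter on low counts, Id4 had the log2 fold change furthest from 0, and it was lower in CTC. Id4 (ENSMUSG00000021379, chromosome 13, 48261228 to 48266026, GRCm38) encodes an inhibitor of helix-loop-helix factors. It was at 12.4, 23.1 and 78.9 CPM in CTC of mice 1, 2 and 3 and at 217, 105 and 239 CPM in PT of the same mice. All 3 CTC libraries lay below all 3 PT libraries, and the group means were 38.1 ± 35.7 and 187 ± 71.9 CPM (SD, n = 3 each). The log2 fold change, CTC minus PT, was -2.29 (SE 0.69). Within a mouse PT was 17.6-fold, 4.54-fold and 3.03-fold above CTC for mice 1, 2 and 3. CTC replicate 3 held the highest Id4 level of its group, and without it the log2 fold change was -3.40. A lincRNA and an antisense gene that overlap Id4 had at most 9 counts in any library.

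Id3 went the other way by a smaller amount. Id3 (ENSMUSG00000007872, chromosome 4) encodes a family member that BMP and TGF-beta ligands induce in many cells. It was at 83.5, 159 and 128 CPM in CTC of mice 1, 2 and 3 and at 79.2, 66.6 and 52.1 CPM in PT. The groups did not overlap, but CTC replicate 1 lay only 1.05-fold above PT replicate 1, the highest PT library. The group means of Id3 were 124 ± 38.2 and 66.0 ± 13.6 CPM (SD, n = 3 each), a log2 fold change of 0.91 (SE 0.32). The factor between CTC and PT was 2.40 in mouse 2 and 2.46 in mouse 3. Of the 6 members that passed the filter on low counts, Id3 and Id4 were the 2 without overlap between the groups. Over all 13874 genes that passed it the share without overlap was 12.1% (5.95% higher and 6.16% lower in CTC), and the contrast chose these genes, so nothing is read from the count.

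**Figure D1:**
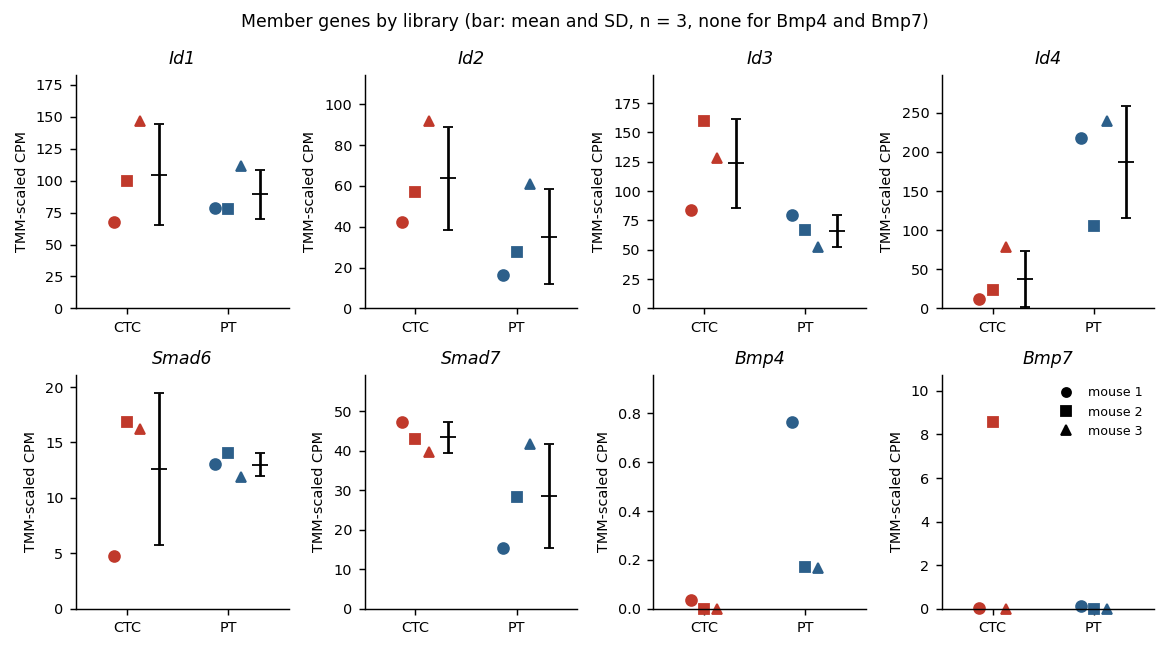
TMM-scaled CPM (vertical axis) of the 8 genes in the CTC and PT libraries, 1 point per library and 1 symbol per mouse, with a bar for the mean and SD of 3 libraries except for Bmp4 and Bmp7. Id4 lies lower in every CTC library than in any PT library (at most 78.9 against at least 105 CPM), Id3 lies higher, and Bmp7 reached 8.59 CPM in CTC of mouse 2 alone.

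Id2 was higher in CTC than in PT of the same mouse in all 3 mice, while the groups as a whole overlapped. Id2 was at 42.3, 57.2 and 91.6 CPM in CTC of mice 1, 2 and 3 and at 16.4, 27.5 and 61.1 CPM in PT. Its log2 fold change was 0.86 (SE 0.52), and it became 1.53 without PT replicate 3, 0.53 without PT replicate 1 and 0.50 without CTC replicate 3. Id2 lies on chromosome 12, where the 40 nearest tested genes (17.9 to 32.0 Mb) were low in PT replicate 1, their median lying at -0.99 (log2) from their own mean over all libraries. The deviation of Id2 in that library was -1.38. The part of the neighbourhood in the Id2 level was not tested. In the other 5 libraries the neighbours deviated by between 0.04 and 0.33.

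Id1, the classic BMP target of the family, overlapped between the groups. It was at 68.0, 99.8 and 146 CPM in CTC of mice 1, 2 and 3 and at 78.5, 78.1 and 112 CPM in PT. The lowest and the highest library were both CTC, and the log2 fold change of 0.23 (SE 0.34) was -0.09 without CTC replicate 3. The 40 neighbours of Id1 on chromosome 2 (151 to 154 Mb) had their lowest median deviation, -0.37, in CTC replicate 1, where Id1 itself deviated by -0.46. In CTC replicate 3 and PT replicates 1 and 2 Id1 deviated by 0.64, -0.26 and -0.26, and the neighbours by -0.01, 0.19 and 0.09. In CTC replicate 2 and PT replicate 3 the signs were the same (0.09 and 0.25 for Id1, 0.13 and 0.07 for the neighbours). The part of the neighbourhood in the Id1 level was not tested.

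Per length, Id4 took a small share of the family in CTC and a larger one in PT. The 4 Id genes summed to 377, 536 and 749 TPM in CTC of mice 1, 2 and 3 and to 434, 348 and 599 TPM in PT, with overlap. Id4 made up 2.55%, 2.94% and 8.02% of that sum in CTC and 32.2%, 19.1% and 29.2% in PT. Id3 made up 37.1%, 43.5% and 27.9% in CTC and 25.3%, 26.0% and 13.7% in PT. The share of Id1 stayed between 38.7% and 49.3% in all 6 libraries. By mean TPM the order in CTC was Id1 (257 ± 101), Id3 (194 ± 48.6), Id2 (74.5 ± 31.1) and Id4 (28.5 ± 27.5). In PT it was Id1 (201 ± 61.1), Id4 (127 ± 55.5), Id3 (94.0 ± 14.2) and Id2 (38.3 ± 28.6), SD over 3 libraries in each case. Id1 and Id3 in CTC, Id2 and Id4 in CTC, and Id1 and Id4 as well as Id4 and Id3 in PT lay within each other's spread between libraries. Compared within each library, Id2 was above Id4 in all 3 CTC libraries and Id1 above Id4 in all 3 PT libraries. The order of Id1 and Id3 in CTC, and of Id4 and Id3 in PT, was reversed in mouse 2. Id4 stood at 0.0688, 0.0675 and 0.287 times the Id3 level in CTC of mice 1, 2 and 3 and at 1.28, 0.735 and 2.14 times it in PT.

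**Figure D2:**
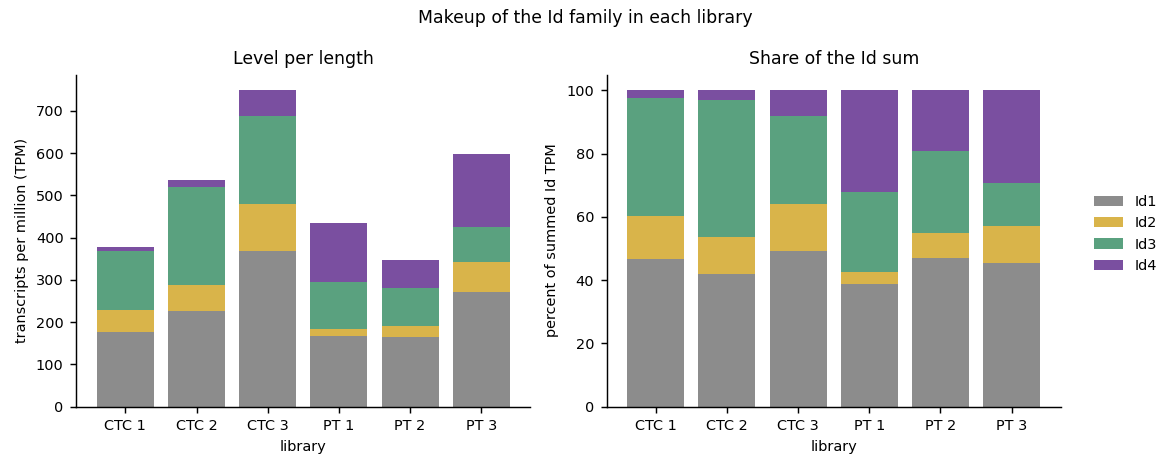
Stacked bars of the 4 Id genes in each library, as TPM (left) and as percent of their sum (right). Id4 takes at most 8.02% of the sum in a CTC library and at least 19.1% in a PT library, while the share of Id1 stays between 38.7% and 49.3%.

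The genes of the E proteins, which Id proteins capture, had overlapping levels in both groups. Tcf3, which encodes the E proteins E12 and E47, was at 97.4 ± 23.8 TPM in CTC and 101 ± 13.3 TPM in PT. Tcf12 was at 16.3 ± 4.204 and 12.2 ± 5.03 TPM and Tcf4 at 1.82 ± 0.43 and 1.31 ± 0.32 TPM (SD, n = 3 each). The summed Id level was 4.08, 4.43 and 5.63 times the summed E protein level in CTC of mice 1, 2 and 3 and 3.75, 2.83 and 5.69 times it in PT. Mouse 3 had the highest ratio in both groups, and the groups overlapped. Transcript levels do not give the amounts of the proteins.

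Both inhibitory Smads overlapped between the groups, with a higher mean of Smad7 in CTC. Smad7 was at 47.4, 43.1 and 39.7 CPM in CTC of mice 1, 2 and 3 and at 15.4, 28.4 and 41.9 CPM in PT. CTC libraries lay close together and PT libraries spread 2.72-fold, so PT replicate 3 lay inside the CTC range. The log2 fold change of 0.60 (SE 0.38) was 0.31 without PT replicate 1 and 0.98 without PT replicate 3. Smad6 was at 4.72, 16.9 and 16.2 CPM in CTC of mice 1, 2 and 3 and at 13.1, 14.0 and 11.9 CPM in PT, so that CTC replicate 1 was the only library away from the rest. Its log2 fold change of -0.05 (SE 0.50) was 0.35 without that library. CTC replicate 1 was also the lowest library for Id1 and Id4, and the highest for Smad7.

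**Figure D3:**
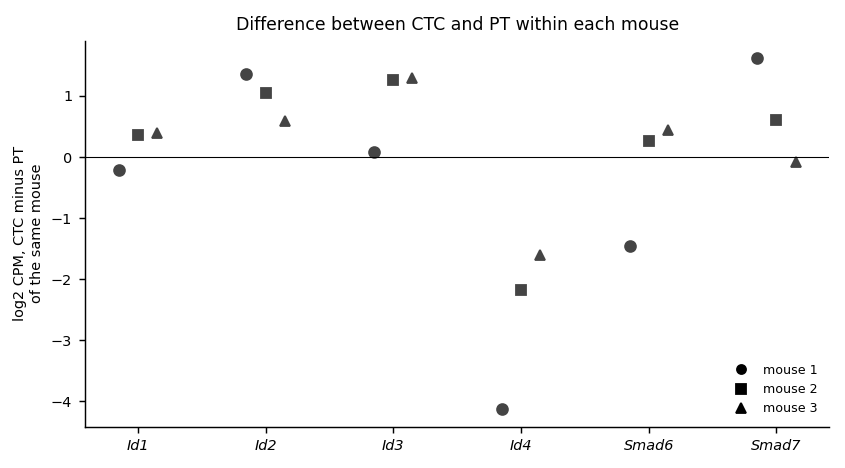
Difference in log2 CPM between CTC and PT of the same mouse (vertical axis) for the 6 members that passed the filter on low counts, 1 symbol per mouse. Id4 lies below 0 and Id2 and Id3 above 0 in all 3 mice, whereas Id1, Smad6 and Smad7 each have mice on both sides of 0.

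The ligand members were almost unread, except for Bmp7 in CTC replicate 2. Bmp4 had 1, 0 and 0 counts in CTC of mice 1, 2 and 3 and 20, 4 and 4 counts in PT. The highest of these, in PT replicate 1, was 0.731 CPM without TMM scaling (95% Clopper-Pearson interval 0.446 to 1.13, counting error only). Bmp7 had 206 counts in CTC replicate 2 and 1, 0, 3, 0 and 0 counts in CTC replicates 1 and 3 and PT replicates 1, 2 and 3. In CTC replicate 2 this was 8.41 CPM without TMM scaling (interval 7.30 to 9.64). The upper interval bound of the other 5 libraries was at most 0.3203. Neither ligand passed the filter on low counts, so neither has a fold change here. The tested neighbours of Bmp7 on chromosome 2 had a median deviation of 0.01 in CTC replicate 2.

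No other BMP ligand was expressed at a level to compare. None of the 11 other ligands passed the filter, and Bmp10 had 0 counts in every library. By mean level Gdf6, Bmp8a, Gdf5 and Bmp6 came first. Gdf6 had 90 counts in PT replicate 1, 5 in PT replicate 3 and 0 in the other 4 libraries. Bmp8a had 12, 7 and 8 counts in CTC of mice 1, 2 and 3 and 4, 1 and 2 in PT, and lay above PT in every CTC library at these low counts. Gdf5 and Bmp6 stayed at or below 8 and 12 counts.

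The machinery that receives the signal was expressed in both groups. In edgeR's quasi-likelihood test 0 of the 34 tested pathway genes outside the members differed between CTC and PT at an adjusted p under 0.05, as did 0 of all 13874 genes (0%). At an unadjusted p under 0.05 there was 1 pathway gene, Bmper, among 919 genes in all (6.62%). DESeq2 called 0 of the 34 and 62 genes in all (0.447%), and limma-voom called 0 and 0. Log2 fold changes were above 0 for 23 of the 34, and their median was 0.23. Over all genes tested 54.1% were above 0, and the median was 0.05. The libraries of the groups did not overlap for 3 of the 34, all higher in CTC: Rgmb, Smad9 and Runx2. Over all genes tested the share higher in CTC without overlap was 5.95%, so the 3 are near the background. The smallest adjusted p among the 34 was 0.726.

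Among the receptors, Bmpr1a, a type I BMP receptor, was at 21.7 ± 11.5 TPM in CTC and 17.2 ± 8.98 TPM in PT, and Acvr1, another type I receptor, at 20.4 ± 0.52 and 16.0 ± 2.77 TPM (SD, n = 3 each). Of the 10 receptor and coreceptor genes tested, 5 had a positive and 5 a negative log2 fold change. The coreceptor Rgma was at 5.47, 18.8 and 47.8 CPM in CTC of mice 1, 2 and 3 and at 64.2, 37.0 and 47.9 CPM in PT. Its lowest libraries were CTC replicates 1 and 2, as for Id4. The log2 fold change of Rgma was -1.05 (SE 0.68, edgeR adjusted p = 0.743). Its relative Rgmb averaged 26.9 ± 2.23 CPM over the CTC libraries and 17.4 ± 3.71 CPM over the PT libraries. The log2 fold change of Rgmb was 0.63 (SE 0.30, edgeR adjusted p = 0.726).

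Among the signal-carrying Smads, Smad1 was at 28.3, 29.4 and 18.9 TPM in CTC of mice 1, 2 and 3 and at 14.0, 15.9 and 15.7 TPM in PT. On the CPM scale the groups overlapped at 1 point, with 40.4 CPM in CTC replicate 3 and 40.9 CPM in PT replicate 2, and the edgeR adjusted p was 0.726. Smad5 was at 50.3 ± 11.04 and 45.3 ± 18.1 TPM, and Smad4, the shared partner, at 64.0 ± 15.4 and 59.6 ± 24.6 TPM. Smad9 stayed at or below 0.834 TPM.

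Among the extracellular antagonists Nbl1, which encodes the BMP antagonist DAN, had the highest mean TPM (46.2). Nbl1 was at 93.4, 66.9 and 0.235 CPM in CTC of mice 1, 2 and 3 and at 5.60, 37.6 and 0.788 CPM in PT. Both libraries of mouse 3 were the lowest of all 6 (edgeR adjusted p = 0.792 between CTC and PT and 0.614 between mice). Twsg1, which binds BMP together with chordin, was at 58.2 ± 19.0 TPM in CTC and 33.6 ± 12.9 TPM in PT, with overlap (edgeR adjusted p = 0.726). Fst, the activin and BMP binder follistatin, ranged from 2.21 to 30.6 TPM within CTC, and its relative Fstl3 stayed between 6.03 and 10.9 TPM in all libraries. Nog, which encodes noggin, had at most 11 counts, and Grem1, which encodes gremlin, had 0 counts in every library, as had Cer1. Of the intracellular and membrane inhibitors 6 of 7 had a positive log2 fold change (median 0.25), and 0 were called. Smurf1, a ubiquitin ligase of BMP Smads, was at 102 ± 30.8 and 78.8 ± 8.50 TPM and Smurf2 at 65.2 ± 24.3 and 41.5 ± 6.82 TPM. The Smad corepressor Ski was at 42.1 ± 2.01 and 34.4 ± 5.74 TPM, and Tob1, an antiproliferative Smad partner, at 42.9 ± 13.6 and 31.7 ± 10.7 TPM.

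Other known BMP targets were mostly low. Atoh8 was at 0.817, 13.2 and 13.8 CPM in CTC of mice 1, 2 and 3 and at 4.60, 4.38 and 2.82 CPM in PT. Like Smad6 it was lowest in CTC replicate 1 and higher in the other 2 CTC libraries than in every PT library (edgeR adjusted p of Atoh8 = 0.757). Runx2, an osteoblast and mammary transcription factor, was at 16.4 ± 3.07 TPM in CTC and 10.9 ± 3.70 TPM in PT. Antisense genes and Supt3 overlap Runx2, and with no strand setting known their reads cannot be told apart. Dlx5 and Hey1 stayed at or below 5.27 and 2.04 TPM, Msx1 had at most 14 counts and Msx2 had 0.

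**Figure D4:**
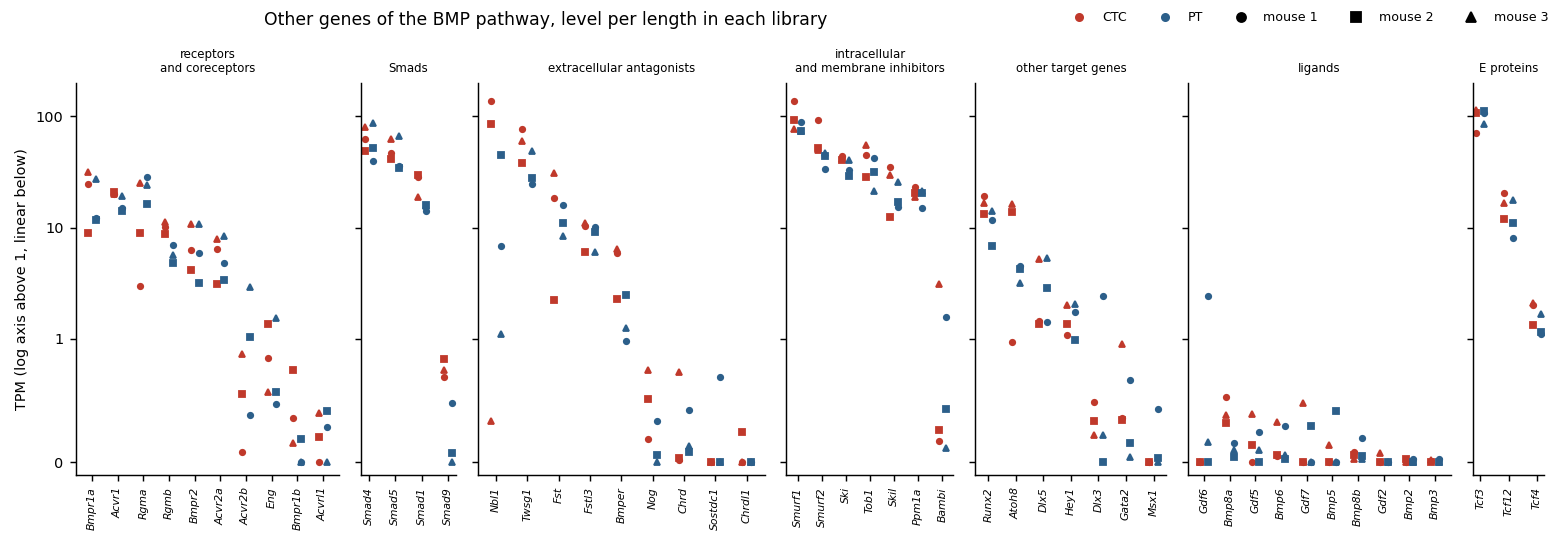
Level per length (TPM, log axis above 1 and linear below) of the other pathway genes with a count in at least 1 library, CTC left and PT right of each tick, grouped by role and sorted by mean. Receptors, Smads and intracellular inhibitors include genes above 10 TPM in both groups, whereas every ligand stays at or below 2.42 TPM.

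Id4 is a gene of basal mammary cells, and its 2 lowest libraries were CTC replicates 1 and 2. All 5 basal markers that passed the filter were lower there than in CTC replicate 3 and PT replicates 1 and 2. They did not all follow Id4 in the other libraries. In PT replicate 3 Trp63, Krt14 and Krt5 were above CTC replicates 1 and 2, but Krt17 and Mylk were below them. The 9 basal markers summed to 191, 307 and 1406 CPM in CTC of mice 1, 2 and 3 and to 6283, 405 and 938 CPM in PT, most of it from the keratin gene Krt14. Trp63, the defining transcription factor of basal cells, was at 0.710, 9.05 and 151 CPM in CTC of mice 1, 2 and 3 and at 60.3, 28.8 and 93.7 CPM in their PT. CTC replicates 1 and 2 were the lowest libraries for Id4, Trp63, Krt14 and Krt5. CTC replicate 3 was above every PT library for Trp63 and below every PT library for Id4. Krt5 was at 0 and 0.042 CPM in CTC replicates 1 and 2 and at 876 CPM in PT replicate 1. In the remaining libraries it lay between 5.73 and 6.996 CPM. The other 2 basal markers that passed the filter were lowest in PT replicate 3, where Id4 was highest: Krt17 was at 0.373 CPM and Mylk at 0.788 CPM there. In CTC replicates 1 and 2 Krt17 was at 0.710 and 1.96 CPM and Mylk at 0.923 and 0.792 CPM. The remaining 4, Acta2, Myh11, Oxtr and Cnn1, had at most 36 counts in any library, and Acta2 had its highest count, 15, in CTC replicate 1. The part of basal cells in the Id4 difference was not tested.

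**Figure D5:**
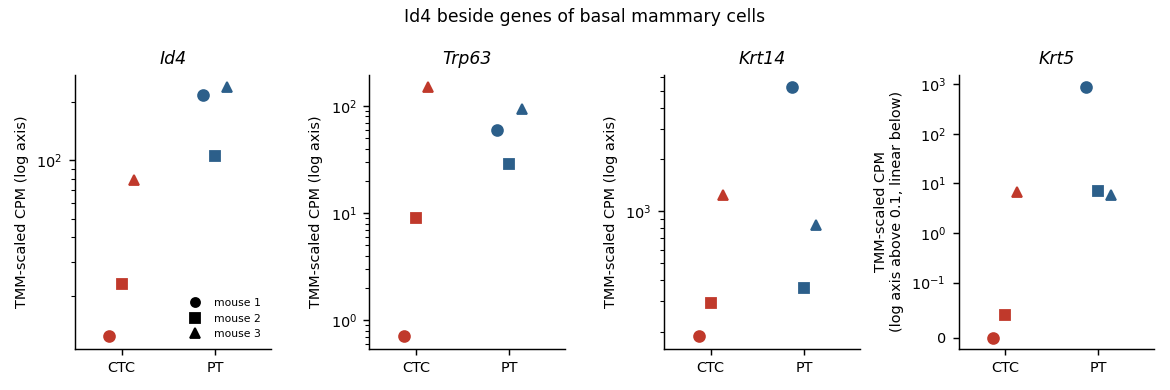
TMM-scaled CPM on log axes (for Krt5 linear below 0.1) of Id4 and the basal genes Trp63, Krt14 and Krt5 in each library, 1 symbol per mouse. CTC of mice 1 and 2 is lowest for Id4, Trp63, Krt14 and Krt5, and CTC of mouse 3 has 151 CPM of Trp63 with 78.9 CPM of Id4. Krt17 and Mylk, which also passed the filter, are not drawn and were lowest in PT of mouse 3, where Id4 was highest.

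The matched design also allows a comparison between the mice, which did not enter the choice of the genes. With the group kept as a term, edgeR's quasi-likelihood F test of the mouse called 0 of the 6 members and 0 of 13874 genes (0%), with a smallest adjusted p of 0.0962 over all genes. At an unadjusted p under 0.05 the edgeR F test gave 827 genes (5.96%). Id2 was the 1 member among them (edgeR unadjusted p = 0.0146, edgeR adjusted p = 0.709). Id2 was lowest in mouse 1 and highest in mouse 3 in both groups. Id1 and Id4 were also highest in mouse 3 in both groups, with edgeR adjusted p-values of 0.894 and 0.850. Id3, Smad6 and Smad7 followed different orders of mice in CTC and PT (edgeR adjusted p from 0.937 to 0.974). Of the 34 other pathway genes 0 were called and 3 had an unadjusted p under 0.05: Bmpr2, Acvr2b and Nbl1. DESeq2 called 313 genes between mice and limma-voom 0, and no member was among them.

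Genes with the most similar profile were ranked by the Pearson correlation of log2 CPM over the 6 libraries, among 9395 protein-coding genes whose mean log2 CPM reached 3. With so few libraries high values arise readily among so many genes, and the ranking is a description. Nearest to Id4 were Zfp362 (r = 0.999), Qsox2 (0.995) and Edem1 (0.990). Zfp362, a zinc finger gene, was at 7.38, 10.3 and 17.3 CPM in CTC of mice 1, 2 and 3 and at 26.9, 20.04 and 28.5 CPM in PT, a smaller range than that of Id4. Nearest to Id3 were Nagpa (0.925), Snrnp35 (0.914) and Tmem131l (0.912). Nearest to Id1 were Tmem230 (0.972), Map3k5 (0.970) and Slc23a2 (0.968), of which Tmem230 and Slc23a2 lie on chromosome 2, as Id1 does. Tmem230 starts at base 132239492 and Slc23a2 at base 132052496, outside the window of the Id1 neighbours (151 to 154 Mb).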

How the data were processed

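The authors deposited raw read counts per Ensembl gene for 6 libraries, with gene lengths, and per the submitters' processing notes HISAT2 and the builds GRCm38 and mm10 were used. The sources used here do not give the aligner version, read counter, annotation release or strand setting. P-values measure the spread between these 6 samples. Counts were tested as deposited with edgeR 4.0.16 (R 4.3.3): TMM scaling, the default filterByExpr filter, glmQLFit and glmQLFTest, and Benjamini-Hochberg adjustment over 13874 genes at 0.05. CPM used the tested genes' total, log2 CPM a prior count of 2, and TPM the deposited gene lengths. Standard errors came from the F statistic. The fits were tested on simulated data. DESeq2 1.42.0 and limma 3.58.1 (voom) were alternatives, with other scalings and filters and leaving out libraries. The fit without replicate term was the main one.

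The labels match same-numbered CTC and PT libraries, which is read here as 1 mouse per number, so the numbers pair the samples. Deviations from the group means correlated across genes at -0.02, 0.16 and 0.30 for mice 1, 2 and 3. The members, gene lists and tests were chosen with earlier results of these data known. From each list the text names the 4 genes with the highest mean TPM, all E proteins, Nog and Grem1, and genes called. The name Hjv was matched through the RefSeq synonym table, and Hjv had 0 counts. Genes named outside that rule (Bmper, Bmpr2, Acvr2b, Cer1, Msx1, Msx2, Bmp10) were chosen after their values were seen. Promoter sequences are RefSeq's for GRCm38.p6. The bases printed for Id4 and Id2 avoid exons of GENCODE M21, whereas those printed for Smad6 run across the annotated start into the gene.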

Additional observations from a re-analysis of the deposited data

How the results depend on the processing

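Id3, Id2 and Smad7 kept a positive and Id4 a negative log2 fold change in each of the 17 alternatives run, with ranges of 0.67 to 1.30, 0.50 to 1.53, 0.25 to 1.04 and -3.40 to -1.74. Id3 and Id4 were picked on this contrast and did not overlap between the groups, so leaving out libraries could hardly change their signs. Nothing is read from their kept signs. Id1 changed sign without CTC replicate 3 (-0.09). Smad6 changed sign without CTC replicate 1 (0.35), without PT replicate 2 (0.0027) and without replicate 1 of both groups (0.37). With the replicate block, edgeR called 0 genes and gave log2 fold changes of -2.61 for Id4 and 0.88 for Id3. The pairing changed no call in edgeR. Its quasi-likelihood test gave a smallest adjusted p over all genes of 0.611 without the replicate block and 0.199 with it. Between CTC and PT 62 genes were called in DESeq2, 252 in DESeq2 with the replicate block (added after seeing the data) and 199 in edgeR without a filter on low counts, where 1 pathway gene, Gdf6, was called. Between mice 313 genes were called in DESeq2 and 729 without a filter, and from 0 to 737 when each library was left out in turn (added after seeing the data), with 737 without PT replicate 3, 352 without CTC replicate 3 and 20 without PT replicate 1. Id4 was called between mice without a filter (adjusted p = 0.0407) and without PT replicate 3 (0.0221), and its other 10 alternatives gave adjusted p-values above 0.05. The causes were not tested. Bmp4 had at most 20 counts in a library, and Bmp7 at most 3 outside CTC replicate 2, so depth limits what can be said of these low counts. The higher Bmp7 level rests on 1 library.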

Other observations

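The luminal keratin gene Krt19, singled out after its values were seen, had 0 counts in both libraries of mouse 3 and between 129 and 2452 counts in the other 4. In edgeR's F test between mice its adjusted p was 0.233. Nbl1, low in the same 2 libraries, lies on another chromosome.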
